A study of Gallus gallus with 36 samples.

Results

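Genes whose proteins phosphorylate clock proteins or tag them with ubiquitin were followed in the chicken pineal gland and retina, namely the kinases CSNK1D, CSNK1E and GSK3B and the F-box protein FBXL21. Every deposited transcript that carries one of these 4 gene names was taken, and each was kept apart. That gave 8 of 23352 transcripts, 3 of CSNK1D, 3 of CSNK1E, 1 of GSK3B and 1 of FBXL21. All 8 passed the filter on low counts in both tissues. No transcript of another gene in the deposited table overlapped their spans.

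In the vertebrate clock, CLOCK and ARNTL switch on the PER and CRY genes, whose proteins return to the nucleus and repress them, and the speed of this loop depends on how long PER and CRY proteins last. Casein kinases 1 delta (CSNK1D) and 1 epsilon (CSNK1E) phosphorylate PER proteins, which sets their stability and entry into the nucleus, and GSK3B phosphorylates several clock proteins. FBXL21 is the substrate-binding subunit of an SCF ubiquitin ligase, and in mammals it is known to bind CRY proteins. The avian pineal gland and retina both hold light-sensitive cells with their own clock and both make melatonin.

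The birds were chicks from Hyline International that were kept in cycles of 12 h light and 12 h dark for 9 days and then put in constant darkness on day 10, with no other treatment in any group. Samples were taken at circadian time (CT) 0, 4, 8, 12, 16 and 20 h, where CT0 is the start of the subjective day, so that 1 cycle was covered. A rhythm call below is a fit to a curve with its period fixed at 24 h. The period itself, and a repeat in a later cycle, were not tested. A pineal library pooled 3 glands and a retina library came from 1 retina. Each tissue and time had 3 libraries, 36 in 12 groups, and the labels do not say whether replicates are separate birds. The p-values thus rest on the spread among the replicates, part or all of which can be technical.

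Pineal libraries had 6583163 to 9434608 estimated counts and retina libraries 4994388 to 8122277. The 4 pineal markers found in the table summed to 9399 to 34340 CPM (counts scaled to a common library total) in pineal libraries and to 245.3 to 394.2 CPM in retina libraries. The 5 rod and cone markers found summed to 138.1 to 468.5 CPM in pineal libraries and to 4324 to 6700 CPM in retina libraries, so the defining markers matched the tissue labels. Pineal libraries also held markers of choroid plexus, the secretory tissue next to the gland, at a sum of 1110 to 44310 CPM over 5 markers, with none of the 5 at 0, against 108.9 to 285.8 CPM in the retina. Nearly all of it was TTR, the transthyretin gene. CLIC6 and OTX2 averaged 67.89 and 64.82 CPM in pineal libraries but also 42.89 and 29.7 CPM in the retina, so their presence is not particular to choroid plexus. KCNJ13 and FOLR1 averaged 27.37 and 35.83 CPM in pineal libraries and 7.691 and 0.09569 CPM in the retina. In 3 pineal libraries, CT12 replicates 1 and 3 and CT20 replicate 1, TTR lay between 999.9 and 1613 CPM, against 23180 to 43980 CPM in the 15 others. The main pineal results are therefore also given without these 3 libraries. Beyond those values the part of choroid plexus RNA in the results was not tested. Blood cell markers summed to 270.9 to 1144 CPM in pineal and 17.59 to 152.9 CPM in retina libraries. Lymphocyte and macrophage markers summed to 190.5 to 477.3 and 44.25 to 82.41 CPM. Pigment epithelium markers summed to 182.4 to 453.2 and 237.1 to 779.4 CPM. Most of the pineal sum was RPE65, with a mean of 266.8 CPM against 183.8 CPM in the retina. BEST1 averaged 10.06 and 12.46 CPM. The pigment genes TYRP1 and DCT were near the floor in the pineal gland, at 1.081 and 0.5445 CPM, against 125.3 and 130.5 CPM in the retina. The part of these cells in the tissue differences was not tested.

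FBXL21 was called rhythmic in both tissues on a fitted 24 h curve, and its fitted peak came earlier in the retina. Its only transcript, FBXL21-201 (ENSGALT00000010230), lies on chromosome 13 from 15550913 to 15562331 as the deposited table gives it. Pineal levels in replicates 1, 2 and 3 were 43.3, 35.6 and 40.0 CPM at CT0, 36.9, 45.8 and 39.9 CPM at CT4, and 46.8, 41.4 and 45.3 CPM at CT8. They were 70.0, 54.3 and 51.8 CPM at CT12, 63.1, 59.2 and 59.2 CPM at CT16, and 53.5, 53.6 and 45.7 CPM at CT20. All 6 libraries of CT12 and CT16 lay above all 9 libraries of CT0, CT4 and CT8. The group means ran, from high to low, CT16 (60.5 ± 2.28 CPM, SD, n = 3), CT12 (58.7 ± 9.86), CT20 (50.9 ± 4.54), CT8 (44.5 ± 2.79), CT4 (40.9 ± 4.50) and CT0 (39.7 ± 3.86), and every group overlapped its neighbour in that order. The highest library of all, CT12 replicate 1, is 1 of the 3 that were low in TTR.

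A 24 h curve fitted to the pineal values had an amplitude of 0.33 ± 0.05 (SE) in log2 units, measured from the mean up to the peak, a peak at CT14.8 ± 0.529 h and a peak-to-trough ratio of 1.58. The rhythm passed edgeR's quasi-likelihood test at a Benjamini-Hochberg adjusted p of 9.21e-05, and at 0.000276 without the 3 libraries low in TTR. Of the 8 member transcripts, 2 passed in the pineal gland, FBXL21-201 and CSNK1E-203, beside 21.1% of all 16070 tested transcripts. The amplitude of FBXL21 was above the median of the called transcripts, 0.26. In bulk tissue a change in the number of cells that express a gene and a change in the RNA per cell cannot be told apart.

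In the retina FBXL21-201 stood at 36.3, 34.6 and 28.0 CPM at CT0, 48.2, 51.1 and 47.5 CPM at CT4, and 61.9, 68.2 and 54.1 CPM at CT8. It stood at 64.2, 69.0 and 63.9 CPM at CT12, 50.7, 55.2 and 53.4 CPM at CT16, and 45.8, 40.5 and 40.5 CPM at CT20. The order of the means was CT12 (65.7 ± 2.87 CPM), CT8 (61.4 ± 7.10), CT16 (53.1 ± 2.26), CT4 (48.9 ± 1.94), CT20 (42.3 ± 3.10) and CT0 (33.0 ± 4.36). CT4 did not overlap CT20, and CT20 did not overlap CT0, while the other neighbours overlapped. The fitted amplitude was 0.46 ± 0.05, the peak lay at CT11.0 ± 0.398 h, and the peak-to-trough ratio was 1.88 (edgeR adjusted p = 6.77e-06). FBXL21-201 was the only 1 of the 8 member transcripts called rhythmic in the retina, where 6.29% of 14956 tested transcripts were called, and it ranked 101 by p among them. No alternative processing and no left-out library ended the rhythm call in either tissue.

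**Figure D1:**
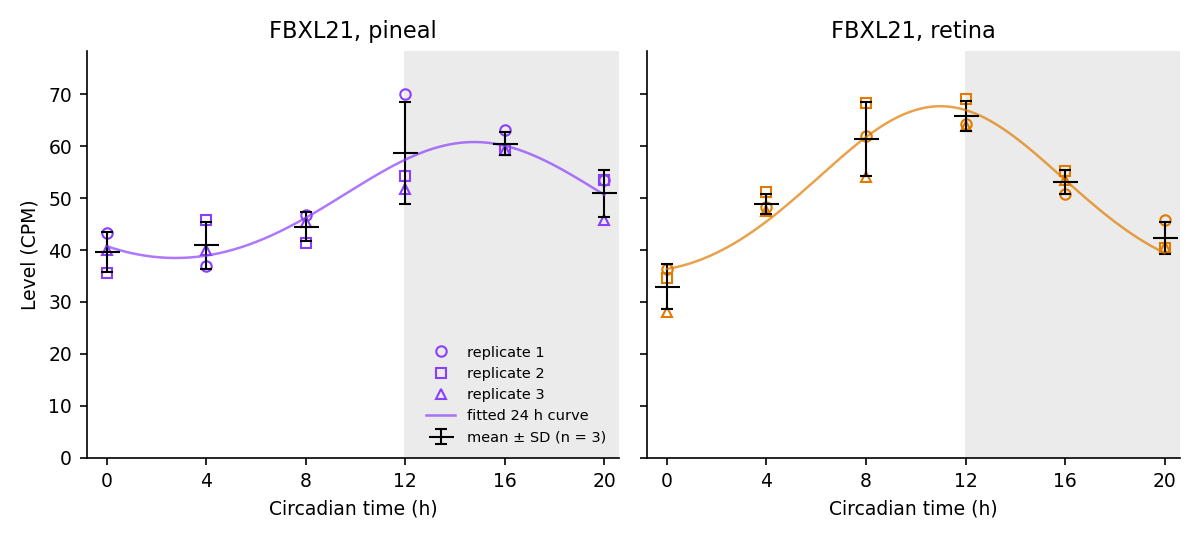
Level of FBXL21-201 in CPM (vertical axis) against circadian time in hours (horizontal axis) in the pineal gland (left) and the retina (right). Open symbols are the 3 libraries of each time, black bars the mean ± SD (n = 3), lines the fitted 24 h curve and grey the subjective night, and the retinal curve peaks at CT11.0 and the pineal curve at CT14.8.

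The difference in rhythm between the tissues was tested itself, with timing and amplitude taken jointly. The pineal peak came 3.78 ± 0.662 h later than the retinal peak, and the pineal amplitude was lower by 0.13 ± 0.07 on the log2 scale, a difference under 2 SE. The interaction of tissue with the curve passed at an edgeR adjusted p of 0.000255, and at 0.000232 without the libraries low in TTR. FBXL21-201 was the only 1 of the 8 member transcripts to pass this test, which 12.1% of 16831 transcripts passed. The later pineal peak was not particular to FBXL21. All 7 tested genes of clock proteins, given below, passed the test too, each with a later fitted peak in the pineal gland. At CT16 and CT20 against CT4 and CT8, that is night against day, FBXL21 rose in the pineal gland, from a mean of 42.7 to 55.7 CPM, by 0.38 ± 0.08 on the log2 scale (edgeR adjusted p = 0.00476), and 5 of 6 night libraries lay above all 6 day libraries. It was the only member transcript called higher at night there, where 8.36% of transcripts were called higher and 6.66% lower. In the retina the mean was 47.7 CPM at night and 55.2 CPM by day, a difference of -0.21 ± 0.07 that did not pass (edgeR adjusted p = 0.251), with 3 of 6 night libraries below all day libraries. No member transcript was called in that retinal contrast, beside 0.762% of all transcripts. At an unadjusted p of 0.0074 FBXL21 was the only 1 of the 8 under 0.05 there, and DESeq2 called none of the 8 either. That contrast leaves out CT12 and CT0, where FBXL21 had its highest and lowest retinal means (65.7 and 33.0 CPM). The retinal difference thus depends on which times count as night and day.

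The transcripts whose pattern was most like that of FBXL21 were found by correlation in each tissue. Over the 18 pineal libraries the largest Pearson r with FBXL21-201 on the log2 CPM scale, among 14023 transcripts of other genes, were those of KLF11, a transcription factor (r = 0.94), ACPL2 (0.93), NBEA, a protein of vesicle traffic (0.93), AMOT, a protein of cell junctions (0.93), and DOCK3, an activator of Rac (0.93). Their fitted peaks lay between CT14.1 (ACPL2) and CT15.5 (DOCK3), and their amplitudes between 0.36 (KLF11) and 0.52 (DOCK3). Over the 18 retina libraries, among 13337 transcripts, they were NDRG1 (r = 0.94), the acyl-CoA synthetase ACSL3 (0.94), G0S2, an inhibitor of fat breakdown (0.93), ARNTL, the partner of CLOCK (0.93), and LONRF2 (0.93). The retinal peak of ARNTL lay at CT11.0, the same fitted time as that of FBXL21, with an amplitude of 0.97. These values only describe likeness over libraries that share the 6 times, and carry no test.

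The casein kinase 1 genes need their transcripts and their totals side by side. Summed over a gene's transcripts, the estimated counts of CSNK1D and of CSNK1E were whole numbers within 0.01 in 36 of 36 libraries, while the values of single transcripts were often fractions, as whole reads divided among transcripts would be. For 2 transcripts of each gene, CSNK1E-202 with CSNK1E-203 and CSNK1D-202 with CSNK1D-203, the values varied far more between libraries than the gene's total did. CSNK1E-202 (ENSGALT00000030596, chromosome 1, 52888380 to 52891549) and CSNK1E-203 (ENSGALT00000030598, 52888380 to 52891558) have the same start and ends 9 bases apart. At pineal CT8 CSNK1E-202 held 58.1, 66.6 and 0.359 estimated counts in replicates 1, 2 and 3, and CSNK1E-203 held 225, 248 and 310. In the retina at CT20 replicate 1, CSNK1E-202 held 0.0322 counts and CSNK1E-203 held 237. With counts divided by the library total alone, the coefficient of variation over the 18 pineal libraries was 52.6% for CSNK1E-202, 27.5% for CSNK1E-203 and 8.9% for their sum, and in the retina it was 60.3%, 41.0% and 8.2%. CSNK1D-202 (ENSGALT00000038956, chromosome 18, 4833850 to 4849834) and CSNK1D-203 (ENSGALT00000004287, 4833865 to 4844444) varied by 43.3% and 65.1% in the pineal gland and their sum by 12.8%. In the retina they varied by 59.8% and 54.0%, and their sum by 8.3%.

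**Figure D2:**
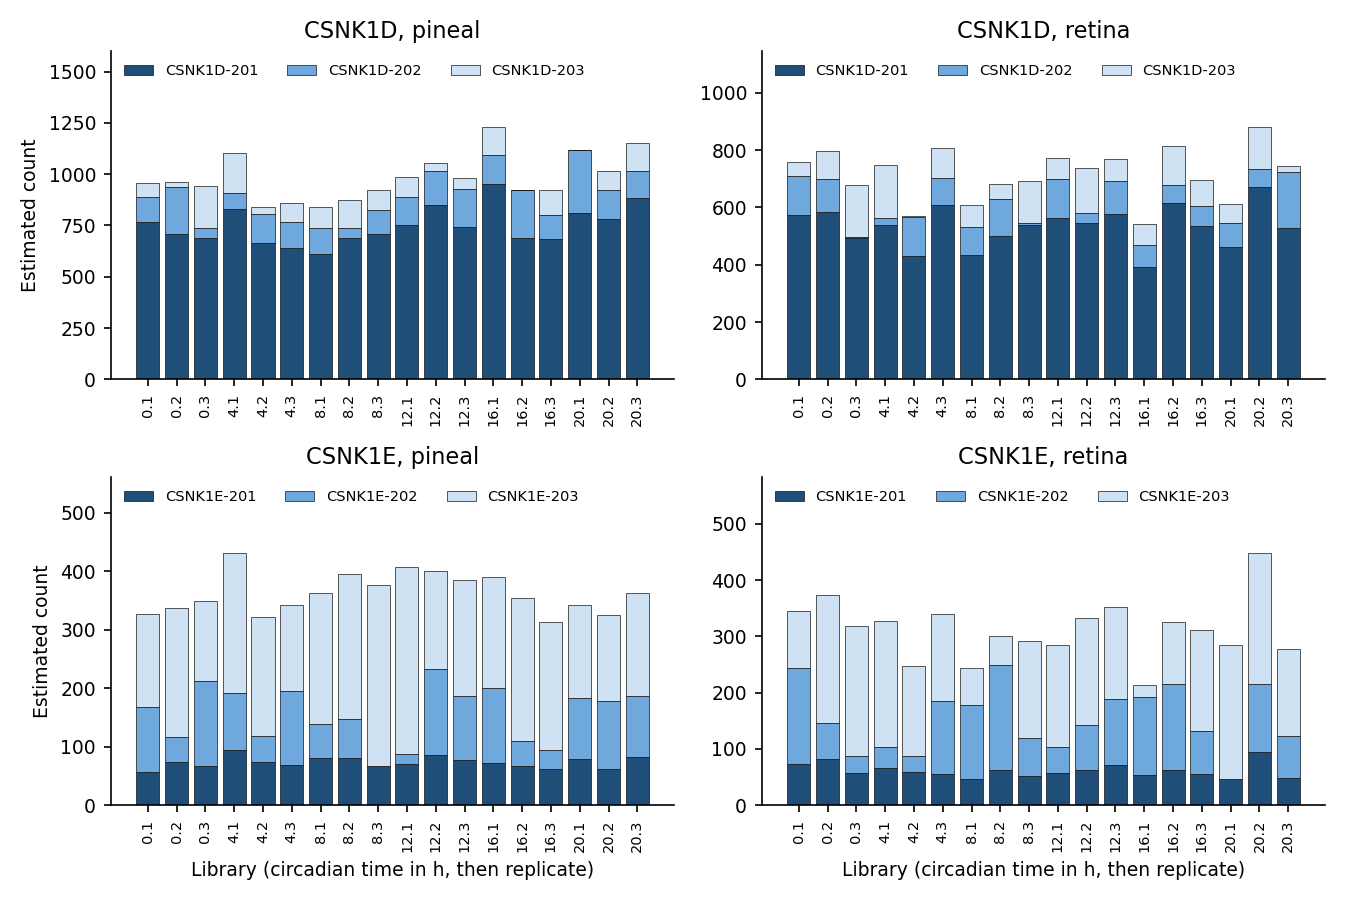
Estimated counts (vertical axis, linear from 0) of the 3 transcripts of CSNK1D (top) and of CSNK1E (bottom), stacked to the gene's total, in each library (horizontal axis, circadian time then replicate) of the pineal gland (left) and retina (right). CSNK1E-202 (middle shade) ranges between 0.0952 and 41.6% of the gene's counts in the pineal gland and between 0.0113 and 65.3% in the retina.

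CSNK1E fell at night in the pineal gland as a gene total, while none of its 3 transcripts passed that contrast (smallest edgeR adjusted p = 0.159, smallest unadjusted p = 0.0399, both CSNK1E-201). The CSNK1E total was 41.8, 42.5 and 47.0 CPM at CT0, 48.7, 48.4 and 46.6 CPM at CT4, and 53.9, 53.5 and 49.6 CPM at CT8 in replicates 1, 2 and 3. It was 54.9, 46.7 and 50.6 CPM at CT12, 42.1, 46.5 and 45.3 CPM at CT16, and 41.5, 45.3 and 44.1 CPM at CT20. All 6 libraries of CT16 and CT20 lay below all 6 of CT4 and CT8. By mean the order was CT8 (52.3 ± 2.35 CPM), CT12 (50.7 ± 4.10), CT4 (47.9 ± 1.15), CT16 (44.7 ± 2.29), CT0 (43.8 ± 2.84) and CT20 (43.6 ± 1.94), and of the neighbours only CT4 and CT16 did not overlap. The fitted amplitude was 0.14 ± 0.02, the peak lay at CT8.85 ± 0.659 h and the peak-to-trough ratio was 1.22 (edgeR adjusted p = 0.00151, and 0.02 without the libraries low in TTR). Counting totals, 3 of the 4 genes passed the pineal rhythm test, FBXL21, CSNK1E and CSNK1D, beside 28.6% of 13042 gene totals. The difference of night from day was -0.18 ± 0.05 (adjusted p = 0.0132, from a mean of 50.1 CPM by day to 44.1 CPM at night). CSNK1E was the only 1 of the 4 totals called lower at night, beside 10.0% of all totals, and 3 of the 4 totals were called in either direction, beside 21.5%. This night call was lost without pineal CT16 replicate 1 (edgeR adjusted p = 0.0506) or CT20 replicate 1 (0.0589). It was also lost when CT12 counted as night and CT0 as day, at 0.388 and a difference of -0.05.

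Of its transcripts, CSNK1E-203, which held the largest share of the counts, was called rhythmic in the pineal gland at an edgeR adjusted p of 0.0469, with an amplitude of 0.34 ± 0.11 and a peak at CT9.60 ± 1.24 h. Its levels ranged from 18.5 to 43.3 CPM over the 18 libraries, and the 3 libraries of CT12 alone spanned 19.5 to 43.3 CPM. The call was lost without any 1 of 12 of the 18 libraries, at adjusted p between 0.0507 and 0.107, and at 0.155 without the libraries low in TTR. The libraries whose loss did not end it were CT0 replicate 2, CT4 replicate 3, CT12 replicates 2 and 3, and CT16 replicates 2 and 3. CSNK1E-201 (ENSGALT00000030597, chromosome 1, 52878372 to 52892173), the longest span, held a steadier 17.4 to 22.9% of the gene's pineal counts, and its rhythm had an amplitude of 0.13 ± 0.05 and a peak at CT7.64 but did not pass (adjusted p = 0.225). CSNK1E-202 had an amplitude of 0.80 ± 0.48 with an adjusted p of 0.72. Most alike to CSNK1E-203 over the pineal libraries were KCNJ16 (r = 0.75), JAKMIP2 (0.73), HEATR3 (0.73), BET1L (0.72) and C6ORF57 (0.71), lower values than any of those for FBXL21.

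In the retina the CSNK1E total was 50.0 ± 2.70 CPM at CT0, 47.1 ± 1.18 at CT4, 46.8 ± 3.09 at CT8, 46.7 ± 4.29 at CT12, 45.0 ± 2.89 at CT16 and 48.8 ± 6.30 at CT20, and each group overlapped the next in order of level. Its amplitude was 0.05 ± 0.04 (edgeR adjusted p = 0.643). FBXL21 was the only 1 of the 4 gene totals called rhythmic there, beside 8.91% of 12172. Between night and day edgeR and DESeq2 called no member total there, and FBXL21 was the only 1 under an unadjusted p of 0.05. Of all totals edgeR called 0.534% higher and 0.994% lower, 1.53% in all. With CT12 counted as night and CT0 as day, edgeR called 1 of the 4 totals, beside 454 of all 12172, 189 higher and 265 lower. The pineal and retinal curves of CSNK1E differed at an edgeR adjusted p of 0.00917, and CSNK1E and FBXL21 were 2 of the 4 totals to pass that test, beside 16.4% of 13485. Without the 3 pineal libraries low in TTR the difference for CSNK1E no longer passed (0.0642). None of its 3 transcripts passed it alone, and the smallest adjusted p was that of CSNK1E-203, 0.216.

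**Figure D3:**
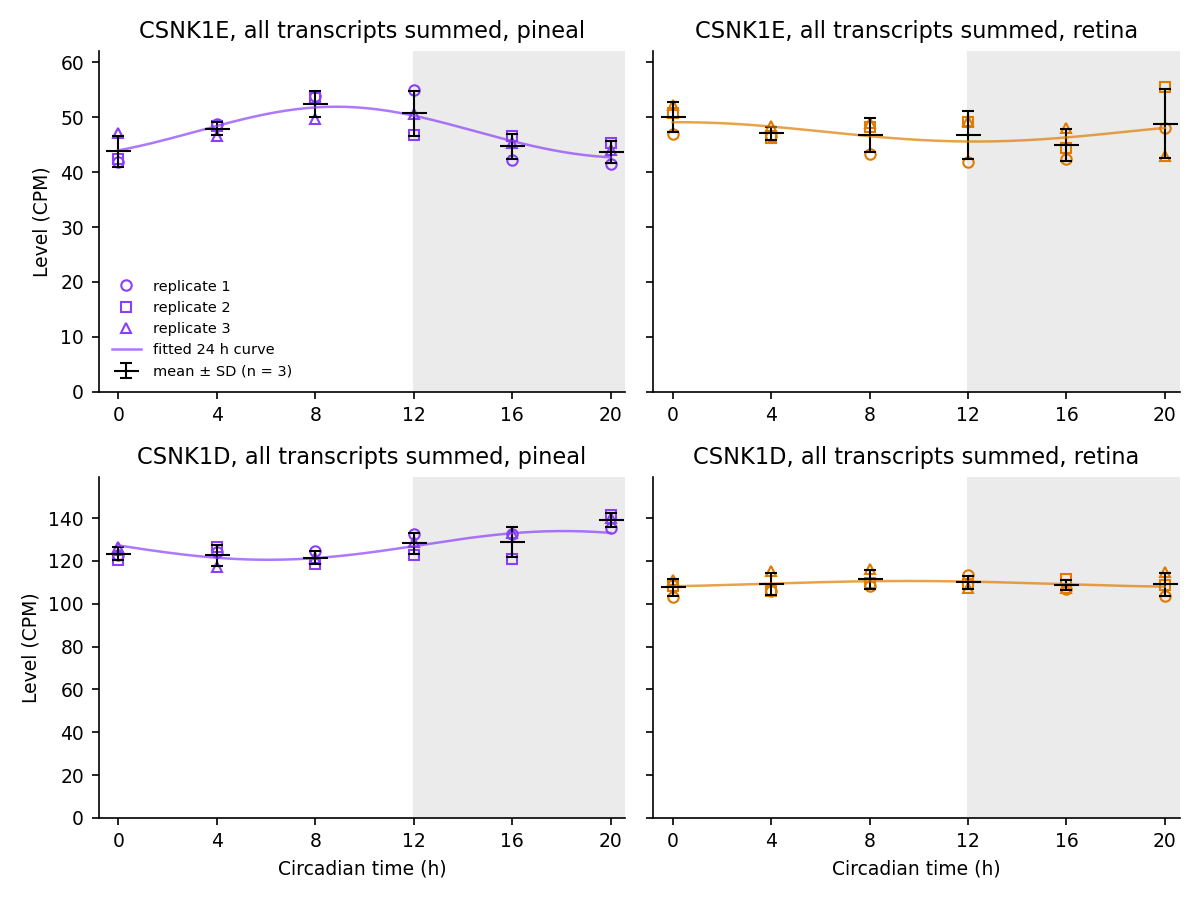
Level in CPM (vertical axes, linear from 0) of all transcripts summed of CSNK1E (top) and CSNK1D (bottom) against circadian time in hours, in the pineal gland (left) and the retina (right). Open symbols are libraries, black bars the mean ± SD (n = 3), lines the fitted 24 h curves and grey the subjective night, and in the pineal gland CSNK1E is highest at CT8 (52.3 CPM) and CSNK1D at CT20 (138.9 CPM).

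CSNK1D had a shallow rhythm in the pineal gland with its fitted peak in the subjective night. The CSNK1D total was 122.7, 120.6 and 126.7 CPM at CT0, 124.3, 126.6 and 117.1 CPM at CT4, and 124.5, 118.4 and 121.5 CPM at CT8 in replicates 1, 2 and 3. It was 132.8, 122.9 and 128.9 CPM at CT12, 132.7, 120.7 and 133.2 CPM at CT16, and 135.2, 141.5 and 140.1 CPM at CT20. The 3 libraries of CT20 were the 3 highest of the 18, and the other groups overlapped their neighbours in order of level. The fitted amplitude was 0.08 ± 0.02, the peak lay at CT18.1 ± 1.05 h and the peak-to-trough ratio was 1.11 (edgeR adjusted p = 0.0363). At night the total rose by 0.13 ± 0.03 on the log2 scale, from 122.1 to 133.9 CPM (adjusted p = 0.0106, and 0.0153 without the libraries low in TTR), and 5 of 6 night libraries lay above all day libraries. CSNK1D and FBXL21 were the 2 totals called higher at night, beside 11.5% of all totals. The amplitude of the total was under the median of all tested transcripts taken singly, 0.14, as was that of its transcript CSNK1D-201, 0.07. A fitted amplitude is never negative and scatter among libraries raises it, so that median holds scatter as well as rhythm. The rhythm call was lost without pineal CT4 replicate 3, CT8 replicate 2 or 3, CT16 replicate 1 or 3, or CT20 replicate 2 or 3 (adjusted p between 0.0562 and 0.0849), and without the libraries low in TTR (0.0721). On FPKM values in limma neither the rhythm (adjusted p between 0.0861 and 0.0898) nor the night difference (0.0584 to 0.0602) passed.

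The main transcript, CSNK1D-201 (ENSGALT00000038959, chromosome 18, 4833641 to 4852015), held 76.0 ± 2.41% of the gene's pineal counts (SD, n = 18). Its pineal rhythm had an amplitude of 0.07 ± 0.03 and a peak at CT17.5 and did not pass (edgeR adjusted p = 0.133), though it passed without CT16 replicate 2 (0.0381). Its means were 104.8 ± 5.56 CPM at CT20 and 92.0 ± 1.35 CPM at CT8, the highest and the lowest. The night difference of 0.13 ± 0.04 did not pass either (adjusted p = 0.064), though it passed without CT4 replicate 2, CT16 replicate 2 or CT20 replicate 1 (0.031 to 0.0481). CSNK1D-202 and CSNK1D-203 had amplitudes of 0.38 ± 0.22 and 1.01 ± 0.64, with adjusted p of 0.412 and 0.874. In the retina the CSNK1D total stayed between 103.3 and 116.3 CPM in all 18 libraries, a coefficient of variation of 3.4%, with an amplitude of 0.02 ± 0.02 (adjusted p = 0.874). The tissue difference of its rhythm did not pass (adjusted p = 0.0884), though it passed without pineal CT16 replicate 2 (0.0297).

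GSK3B had no called rhythm in either tissue, and its libraries lay close together, with a coefficient of variation of 5.9% in the pineal gland and 6.8% in the retina. GSK3B-201 (ENSGALT00000030475, chromosome 1, 83339652 to 83425707) lay between 70.0 and 84.1 CPM in the 18 pineal libraries and between 80.5 and 100.7 CPM in the 18 retina libraries. Pineal means were 79.2 ± 1.49 CPM at CT0, 75.1 ± 3.23 at CT4, 74.9 ± 3.47 at CT8, 76.3 ± 6.24 at CT12, 73.4 ± 4.81 at CT16 and 78.2 ± 7.11 at CT20. Retina means were 89.4 ± 5.34 CPM at CT0, 89.0 ± 1.15 at CT4, 85.3 ± 2.57 at CT8, 82.9 ± 3.88 at CT12, 95.5 ± 5.85 at CT16 and 89.6 ± 9.18 at CT20. In each tissue every group overlapped its neighbour in order of level. The amplitudes were 0.04 ± 0.03 (pineal, edgeR adjusted p = 0.682) and 0.06 ± 0.03 (retina, 0.587), both under the median over all tested transcripts of that tissue, 0.14 and 0.09. Those medians hold scatter among libraries as well as rhythm. Night minus day was 0.01 ± 0.05 in the pineal gland (adjusted p = 0.897) and 0.08 ± 0.05 in the retina (0.633).

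**Figure D4:**
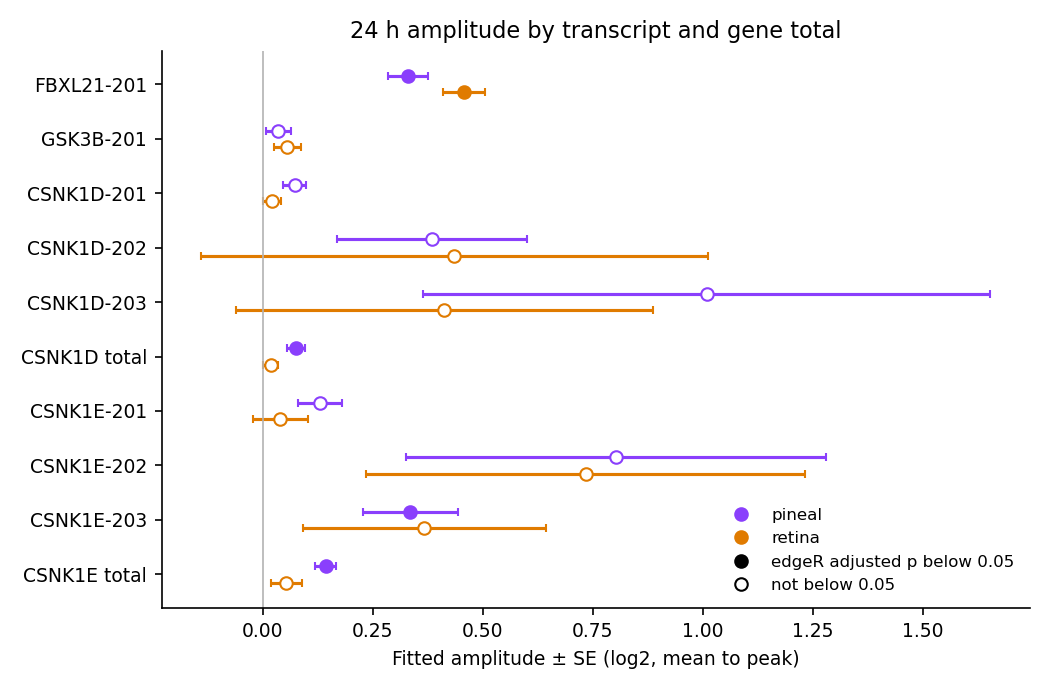
Fitted 24 h amplitude ± SE (horizontal axis, log2 units from mean to peak) of each of the 8 transcripts and of the CSNK1D and CSNK1E totals, in the pineal gland (purple) and retina (orange). Filled symbols passed an edgeR adjusted p of 0.05, and the split transcripts CSNK1D-203 (1.01 ± 0.64) and CSNK1E-202 (0.80 ± 0.48) have large amplitudes with wide errors.

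Between the tissues, CSNK1D was higher in the pineal gland and GSK3B lower, while the differences of FBXL21 and CSNK1E did not pass. Scaled over all 36 libraries, CSNK1D-201 averaged 95.9 ± 5.90 CPM in the pineal gland and 81.8 ± 3.33 CPM in the retina (SD, n = 18), and 15 of 18 pineal libraries lay above all retina libraries. The difference was 0.23 ± 0.02 on the log2 scale (edgeR adjusted p = 6.81e-10), and for the gene total it was 0.18 ± 0.02 (8.71e-10). GSK3B-201 averaged 75.5 ± 4.31 and 89.3 ± 6.08 CPM, a difference of -0.24 ± 0.03 (adjusted p = 1.03e-08), and 16 of 18 pineal libraries lay below all retina libraries. These were 2 of the 8 transcripts, beside 82.7% of all transcripts, 43.2% higher and 39.5% lower, and CSNK1D and GSK3B were likewise 2 of the 4 totals, beside 89.7%, 46.3% higher and 43.3% lower. Without the 3 pineal libraries low in TTR the differences were 0.23 for CSNK1D-201 and -0.26 for GSK3B-201, and both passed. Of the gene totals 3 of the 4 passed without them, beside 12178 of all 13726. The FBXL21 total went from -0.07 (edgeR adjusted p = 0.145) to -0.09 (0.0349), and it also passed without pineal CT12 replicate 1 alone (0.03). FBXL21-201, the same counts scaled and adjusted among transcripts, did not pass without the 3 libraries (-0.07, edgeR adjusted p = 0.127). With any 1 library left out, the adjusted p of FBXL21-201 was 0.0809 or more. FBXL21-201 averaged 48.8 ± 9.31 and 51.1 ± 11.9 CPM (difference -0.05 ± 0.04, adjusted p = 0.281), and the CSNK1E total 46.6 ± 4.11 and 48.0 ± 3.64 CPM (-0.05 ± 0.03, adjusted p = 0.164).

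These tissue differences move with the scaling. On log2(FPKM + 0.1) values the median difference over all transcripts was 0.23, against 0.04 with the counts, and 61.9% of called transcripts were higher in the pineal gland, against 52.2%. On that scale FBXL21-201 and the CSNK1E total turned to higher in the pineal gland, by 0.12 and 0.16 (limma adjusted p = 0.00793 and 1.97e-05). The difference of GSK3B-201 shrank from -0.24 to -0.06 (adjusted p = 0.0442), and that of CSNK1D-201 grew from 0.23 to 0.41 and of the CSNK1D total from 0.18 to 0.36 (5.78e-15 and 1.51e-15). Set against the median of the same scale, the differences moved less: FBXL21-201 lay at -0.09 from the median with counts and at -0.11 with FPKM, the CSNK1E total at -0.08 on both, GSK3B-201 at -0.28 and -0.29, and the CSNK1D total at 0.15 and 0.12.

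Per length, in FPKM, which divides by transcript length and library size, the levels can be set beside each other only as far as the annotated lengths hold. In the pineal gland the CSNK1E total was highest at 94.6 ± 8.00 FPKM (SD, n = 18), then CSNK1D at 87.3 ± 4.89, GSK3B at 55.3 ± 3.37 and FBXL21 at 31.9 ± 5.69. In the retina the order was the same, at 84.5 ± 5.98, 67.9 ± 2.51, 57.6 ± 3.79 and 29.6 ± 6.82 FPKM. In the pineal gland the ranges of CSNK1E (82.5 to 107.9 FPKM) and CSNK1D (79.3 to 96.5) overlapped, and in the retina they did not. By mean CPM the CSNK1E total was instead the lowest of the 4, at 47.2 CPM in the pineal gland and 47.4 CPM in the retina. The FPKM order rests on the annotated transcript lengths. CSNK1E-202 and CSNK1E-203 are annotated over genomic spans of only 3170 and 3179 bp, against 13802 bp for CSNK1E-201. Whether they are complete transcripts was not tested. In the pineal gland CSNK1E-203 averaged 27.0 CPM and 60.0 FPKM, and CSNK1D-201 averaged 96.8 CPM and 59.7 FPKM.

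The share of CSNK1D counts held by CSNK1D-201 was 76.0 ± 2.41% in the pineal gland and 74.2 ± 1.94% in the retina, a difference of 1.79 percentage points (two-sided permutation test, p = 0.0196, adjusted over 2 genes 0.0392, n = 18 per tissue). Leaving out 1 library at a time gave at least 1.53 points. CSNK1E-203 held 56.7 ± 12.8% and 50.2 ± 19.8% of CSNK1E counts, a difference of 6.54 points that did not pass (permutation p = 0.247, n = 18 per tissue). Its share spanned 39.4 to 82.2% in pineal libraries and 9.85 to 83.5% in retina libraries.

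The kinases, phosphatases and ubiquitin enzymes that act beside these 4 genes were read from 7 lists with 54 genes, 38 of which have a named transcript in the table and were tested in both tissues. In the pineal gland 12 of the 38 were rhythmic, 31.6% beside the 21.1% of all tested transcripts, with a median amplitude of 0.09 over the 38 against 0.14 over all. In the retina 4 of 38 were, 10.5% beside 6.29%. Each listed gene is represented by its most counted transcript, unlike the set of all transcripts. Over gene totals the rhythmic shares were 28.6% in the pineal gland and 8.91% in the retina. At night 5 of the 38 rose and 1 fell in the pineal gland by edgeR. Of all tested transcripts 8.36% rose and 6.66% fell, and of gene totals 11.5% and 10.0%. In the retina, where 0.762% of all were called between night and day, the smallest adjusted p of the 38 was that of PPP1CC, 0.0508.

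Among 4 casein kinase 1 and 2 genes tested, CSNK1A1, the alpha form of casein kinase 1, was the only 1 called in the pineal gland, with an amplitude of 0.19 ± 0.03 and a peak at CT12.6 (edgeR adjusted p = 0.000112), and its rhythm differed between the tissues (0.00271). The catalytic CK2 genes CSNK2A1 and CSNK2A2 had pineal amplitudes of 0.05 and 0.04 (adjusted p = 0.387 and 0.682). Of 6 genes that work with or upstream of GSK3, DYRK1A, a kinase that primes GSK3 substrates, was rhythmic in the pineal gland (amplitude 0.12 ± 0.03, adjusted p = 0.0289) and fell by 0.21 ± 0.05 at night (0.0153), and the smallest adjusted p of the 6 in the retina was that of CTNNB1, 0.137. Of 9 other kinases that act on clock proteins, 4 were rhythmic in the pineal gland and 3 in the retina. NLK, Nemo-like kinase, was called in both, with an amplitude of 0.53 ± 0.05 and a peak at CT13.8 in the pineal gland (adjusted p = 1.36e-06) and 0.37 ± 0.02 and CT12.1 in the retina (3.35e-08). The pineal calls also included CAMK2G (amplitude 0.40, adjusted p = 0.0115) and CAMK2D (0.10, 0.0369), kinases that relay calcium signals. In the retina the other 2 were PRKAA2, a catalytic subunit of the energy sensor AMPK (0.16, 0.00684), and the stress kinase MAPK8 (0.13, 0.0108). Of 3 phosphatases the smallest adjusted p in the pineal gland was that of PPP2CA, 0.0729, and PPP1CC passed in the retina (0.10, adjusted p = 0.000821).

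Among 9 tested F-box proteins and other ubiquitin ligases of clock proteins, 2 were rhythmic in the pineal gland. BTRC, the F-box protein that binds phosphorylated PER, was among them and peaked at CT18.3 in the pineal gland (amplitude 0.13 ± 0.03, adjusted p = 0.022) and rose by 0.22 ± 0.05 at night. In the retina its amplitude was 0.03 ± 0.02 and did not pass (adjusted p = 0.834), and the tissue difference of its rhythm did not pass either (0.0663). Of the 3 tested core subunits of SCF ligases, SKP1 (amplitude 0.12, adjusted p = 0.000947) and the scaffold CUL1 (0.11, 0.0113) were rhythmic in the pineal gland. Of 4 deubiquitinases, which remove ubiquitin, USP7 (0.15, adjusted p = 0.000333) and USP2 (0.33, 0.0151) were. In the retina the smallest adjusted p of these 4 was that of USP7, 0.0904.

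Genes of clock proteins that these enzymes act on were also read. All 7 tested target genes were rhythmic in the pineal gland, beside 21.1% of all tested transcripts, and 6 in the retina, beside 6.29%, where CLOCK did not pass (edgeR adjusted p = 0.0756). The median amplitude of these 7 was 1.37 in the pineal gland and 0.41 in the retina. All 7 peaked later in the pineal gland than in the retina by the fitted curves. Each passed the test of a tissue difference in rhythm, at an edgeR adjusted p of 0.000618 (CRY2) or less. ARNTL peaked at CT12.6 in the pineal gland and CT11.0 in the retina. CRY1, a substrate of FBXL21 in mammals, peaked at CT10.6 in the pineal gland with an amplitude of 1.02, and at CT8.0 in the retina with 0.32. PER2, a substrate of the casein kinases, peaked at CT3.2 and CT1.9 with amplitudes of 1.82 and 0.73.

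**Figure D5:**
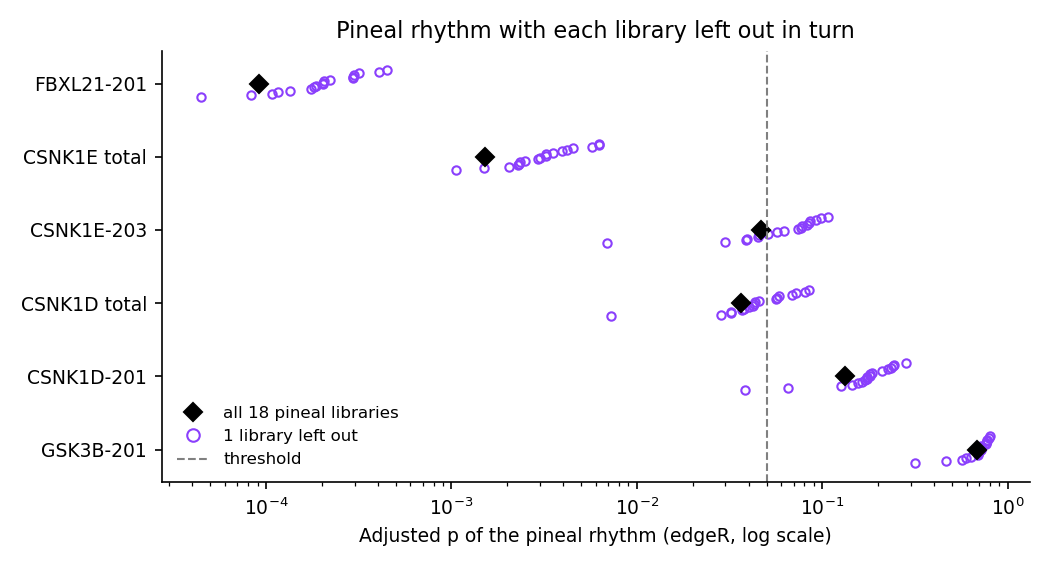
Adjusted p of the pineal rhythm (edgeR, log axis) of 4 transcripts and 2 gene totals, with all 18 pineal libraries (black diamonds) and with each library left out in turn (open circles). The dashed line is the threshold of 0.05, which FBXL21-201 (4.46e-05 to 0.000451) and the CSNK1E total (0.00106 to 0.00625) pass throughout and CSNK1E-203 (0.00688 to 0.107) and the CSNK1D total (0.00722 to 0.0849) do not.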

How the data were processed

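Per the submitters' processing notes, Trimmomatic, TopHat and Cufflinks were used; their versions, the genome build and the use of strand in counting are not given in the sources used here. The authors deposited estimated counts per Ensembl transcript, which need not be whole (68.1% of values are), and FPKM values, counts divided by length and library size, for 36 libraries. Library preparation followed standard Illumina protocols, per the labels. Paralogous kinases can share reads, so their values carry that uncertainty.

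Counts were rounded and tested with edgeR 4.0.16 (TMM scaling, filterByExpr by group, quasi-likelihood F tests) in R 4.3.3. Rhythm was the joint test of 2 coefficients, a cosine and a sine with a period of 24 h, in each tissue's 18 libraries. Night against day was a contrast of group means. The tissue by curve interaction and the mean level were tested over 36 libraries. The Benjamini-Hochberg adjustment ran over every tested transcript, or every gene total, with a threshold of 0.05. Amplitudes came from least squares on log2 CPM with a prior count of 2. Gene totals were counts summed over a gene's transcripts. Shares were compared with 100000 resamples. Alternatives used DESeq2 1.42.0, limma 3.58.1 on log2(FPKM + 0.1) or log2(FPKM + 1) with a mean FPKM of at least 0.5, other scaling, filters and designs, and each library left out. Gene totals under each alternative, and the fits without the libraries under 0.1 of the median pineal TTR, were chosen after seeing the data. Scripts were tested on simulated counts. Plots used matplotlib 3.10.9, numpy 2.4.6 and pandas 2.3.3 in Python 3.11.15.

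The 36 pairs of libraries of 1 group differed by 2.21 to 33.8 times the chi-square of sampling noise alone, so none was counted as a duplicate. The members and gene lists were chosen with earlier results of these data known. Named genes were all members, the 5 transcripts of other genes with the largest r to each rhythmic member, and from each list up to 4 genes by pineal and 2 by retinal p of rhythm; a symbol with several transcripts is represented by the one with most counts. Some genes that this rule names are not reported here.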

Additional observations from a re-analysis of the deposited data

Results flagged for a closer look

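The rhythm of FBXL21-201 differed between the pineal gland and the retina in a test of the difference itself, the interaction of tissue with the 24 h curve (edgeR adjusted p = 0.000255). The fitted peaks lay at CT14.8 and CT11.0, and the alternatives gave adjusted p between 8.76e-07 and 0.000309. All 7 tested genes of clock proteins also passed this test, each with a later fitted peak in the pineal gland.

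The rhythm of the CSNK1E total also differed between the tissues by that test (edgeR adjusted p = 0.00917), with an amplitude of 0.14 ± 0.02 in the pineal gland and 0.05 ± 0.04 in the retina. Its alternatives gave 0.00703 to 0.0642, the highest without the 3 pineal libraries low in TTR, where it no longer passed.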

How the results depend on the processing

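FBXL21 kept its calls under every alternative run: its pineal rhythm had adjusted p between 1.25e-10 and 0.00271, its retinal rhythm between 2.94e-22 and 7.75e-05 and its pineal night rise between 0.00015 and 0.0075. The pineal rhythm of the CSNK1E total also held in all 10 (0.000652 to 0.0213). The pineal rhythm of the CSNK1D total was lost with no filter on low counts (0.0562), without the 3 libraries low in TTR (0.0721) and with limma on FPKM (0.0881 with a pseudocount of 0.1, 0.0898 with no filter, 0.0861 with a pseudocount of 1), and its night rise with the same 3 FPKM settings (0.0596, 0.0602 and 0.0584). CSNK1E-203 was lost with both tissues in 1 fit (0.326), limma on FPKM (0.0673, 0.0882 unfiltered, 0.0672), no count filter (0.0518), time as a factor (0.221), the replicate block (0.0666) and without the libraries low in TTR (0.155), so that 1 member transcript in place of 2 was rhythmic. The night fall of the CSNK1E total was lost with CT12 as night (0.388). The tissue difference in rhythm of that total was lost without the libraries low in TTR (0.0642). That left 1 total in place of 2, beside 2169 of all 13726. Pineal night calls among the 8 transcripts went from 1 to 2 with CT12 as night, DESeq2 or both tissues in 1 fit. Of all transcripts those settings called 1707 higher and 1321 lower of 16070, 1495 and 1268 of 16070, and 1384 and 1128 of 16831. Among totals 3 of 4 were called, beside 21.5%. Tissue level calls went from 2 of 8 to 5, 5 and 6 with limma on FPKM and from 2 of 4 totals to 4. Without the libraries low in TTR 3 totals were called, beside 12178 of all 13726. Of all transcripts the 3 FPKM settings called 8933 higher and 5500 lower of 17617, 9853 and 5864 of 21782, and 8991 and 5543 of 17617. Of all totals they called 7810 and 4735 of 14305, 8493 and 5005 of 16616, and 7823 and 4738 of 14305. With limma on FPKM the direction turned for FBXL21-201 (adjusted p = 0.00793, 0.00914 unfiltered, 0.00814 with a pseudocount of 1) and the CSNK1E total (1.97e-05, 2.22e-05, 2.03e-05). Summing transcripts gave 2 member calls in place of 1 for the tissue difference in rhythm, beside 16.4% of all totals and 12.1% of all transcripts. Over all transcripts, retinal night calls were 114, and 370 with CT12 as night, 280 with DESeq2 and 186 summed, the last becoming 454 with CT12 as night, with 1 member. Retinal rhythm calls fell from 941 to 515, and from 1085 to 696 totals, with time as a factor. With limma on FPKM 43.2% of pineal night calls were higher, against 55.7%. Causes were not tested.

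With 1 library left out, adjusted p ranged from 0.00722 to 0.0849 for the CSNK1D total rhythm, 0.00688 to 0.107 for CSNK1E-203 and 0.0113 to 0.0589 for the CSNK1E night fall. Member transcripts called were 1 to 3 for pineal rhythm, where 3048 to 3394 of all transcripts were called. For pineal night they were 1 to 2, where 1976 to 2458 were called. Totals called for retinal night were 116 to 208, the lowest without CT8 replicate 3. Same-numbered libraries deviated together with r over 0.1 in 3 of 45 pineal pairs (highest r 0.256) and 0 of 45 retinal pairs. Libraries of different number did so in 0 of 90 pairs in each tissue. The labels do not say what the numbers mark, so these r do not settle whether they pair samples. With the replicate block 3365 in place of 3393 transcripts were rhythmic in the pineal gland. CSNK1E-203 lost its pineal rhythm call there (edgeR adjusted p = 0.0666), and no other member call changed. CSNK1E-202 held as little as 0.0322 estimated counts in a library, retina CT20 replicate 1. There CSNK1E-203 held 237 counts of a gene total of 284. The division of counts between transcripts, besides counting error, makes such a low value uncertain.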
